A study of Arabidopsis thaliana with 12 samples.

Results

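The 26S proteasome is the protease that degrades proteins tagged with ubiquitin chains. Its 20S core is a barrel of alpha and beta rings whose beta1, beta2 and beta5 subunits carry the peptidase sites, and its 19S cap holds a ring of ATPases (RPT subunits) that unfold substrates and non-ATPase subunits (RPN subunits) that bind ubiquitin, remove it and hold the cap together. In Arabidopsis many of these subunits are made by pairs of paralogous genes, and the proteasome removes regulators of abscisic acid and gibberellin signalling that act during germination. The measurements below concern 48 genes for these subunits among 33602 genes in the count table: 12 genes of the 20S alpha ring, 11 of the 20S beta ring, 10 RPT genes and 15 RPN genes. The genes were chosen by gene identifier as known subunits, from a list drawn up after results of these same libraries had been seen. Since the record does not say which comparison led to the list, the values of all 5 comparisons below are treated as having been in view. They are given as a description, and nothing is inferred from the count of subunits called.

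RNA sequencing was done on pre-germinated Arabidopsis thaliana seedlings of the wild-type accession Col-0 and of camta6-5, an allele of the gene for CAMTA6, a transcription factor that binds calmodulin. Stratified seeds were sown on agar with 0.25 X MS salts that held 0 or 200 mM NaCl for 16 h, which gave 4 groups of 3 libraries. All groups share the same medium and time, and the labels do not say whether the 3 libraries of a group came from separate sowings, so each p-value measures the spread between these libraries only. The comparisons address how salt altered the transcriptome in each genotype, how the genotypes differed without and with salt, and whether the salt response itself differed (the interaction).

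Each library held 29473212 to 35450685 counts, and 18515 genes passed the filter on low counts, all 48 subunit genes among them, with no fewer than 710 counts for any of these in any library. Levels are given as normalised counts (CPM, scaled to library size). CAMTA6 (AT3G16940) averaged 17.8 ± 2.79 and 30.9 ± 2.84 CPM without and with salt in wild type, and 34.8 ± 1.34 and 43.9 ± 7.43 CPM under the label camta6-5 (SD, n = 3), so the gene count was higher, not lower, under the mutant label. The labels do not describe the lesion of the allele, and a count over the whole gene does not check it. Of the marker lists, the 4 seed reserve genes summed to 407 to 670 CPM in wild type without salt and 7982 to 9620 CPM with it, and to 532 to 1134 CPM and 9319 to 15607 CPM in camta6-5. All 4 were called higher with salt in both genotypes. The 3 green seedling genes summed to 720 to 943, 267 to 356, 814 to 942 and 541 to 660 CPM in the same order, with CAB2 below 1 CPM in every library and RBCS1A giving nearly all of the sum. The 2 endosperm genes summed to 27.8 to 101, 27.9 to 44.5, 28.0 to 40.4 and 41.5 to 66.4 CPM. The sums of the reserve and green seedling genes thus moved with salt in both genotypes, and their part in the results below was not tested. The endosperm sums with and without salt overlapped in wild type, where 1 of the 2 genes was called lower. They did not overlap in camta6-5, where neither gene was called. In whole seedlings, fewer cells of a type and less RNA per cell cannot be told apart.

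The proteasome genes of Arabidopsis are known to share a promoter element with the core TGGGC, which the NAC factors ANAC053 and ANAC078 bind, and so the promoters of a few members are shown before their values. The element was searched on both strands (TGGGC or GCCCA) from 250 bases before to 50 bases after the annotated start of each gene, and it was found in 29 of 48 members (60.4%), against 25.99% of all 27443 protein-coding promoters and 31.2% of the 17868 promoters of tested genes. The core bound by CAMTA proteins, CGCG, was found in 7 members (14.6%, against 12.95% and 14.5%). The core of the abscisic acid response element, ACGTG or CACGT, was found in 9 members (18.8%, against 26.7% and 27.7%), and RPT1A held 7 matches. Matches on either strand were counted separately, so overlapping ones, as in CACGTG, can belong to the same element. No position was shared between different motifs in a member. A match is a run of letters and not a measured site, and TGGGC is also the core of another promoter element, TCP site II. The stretches below are the 200 bases before the annotated start, 5′ to 3′ on the strand of the gene, from the RefSeq annotation of TAIR10.1, with each TGGGC or its reverse complement in capitals. PBA1 encodes the beta1 peptidase subunit, RPN1A and RPN1B are paralogs that both hold the element, the RPN2 paralogs RPN2A and AT1G04810 differ in it, and RPT6A and RPT6B are neighbouring paralogs that both lack it.
PBA1: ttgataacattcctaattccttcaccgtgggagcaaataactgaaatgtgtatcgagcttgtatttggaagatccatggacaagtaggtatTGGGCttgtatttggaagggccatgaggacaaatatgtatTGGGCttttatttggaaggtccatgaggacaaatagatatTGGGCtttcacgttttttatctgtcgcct
RPN1A: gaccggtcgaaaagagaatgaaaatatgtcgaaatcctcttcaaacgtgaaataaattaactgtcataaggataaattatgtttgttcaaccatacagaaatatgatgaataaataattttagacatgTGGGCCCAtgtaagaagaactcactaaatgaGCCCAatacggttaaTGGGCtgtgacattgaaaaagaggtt
RPN1B: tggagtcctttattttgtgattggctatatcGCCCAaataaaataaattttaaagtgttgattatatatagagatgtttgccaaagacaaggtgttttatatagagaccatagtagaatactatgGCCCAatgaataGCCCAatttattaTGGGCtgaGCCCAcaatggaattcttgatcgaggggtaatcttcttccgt
RPN2A: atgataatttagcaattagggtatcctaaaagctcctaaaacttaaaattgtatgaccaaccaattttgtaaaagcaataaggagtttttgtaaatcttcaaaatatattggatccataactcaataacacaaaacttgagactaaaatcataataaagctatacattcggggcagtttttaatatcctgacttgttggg
AT1G04810: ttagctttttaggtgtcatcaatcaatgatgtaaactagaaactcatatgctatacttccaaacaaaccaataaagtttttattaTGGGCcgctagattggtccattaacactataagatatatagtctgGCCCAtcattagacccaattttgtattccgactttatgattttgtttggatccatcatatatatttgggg
RPT6A: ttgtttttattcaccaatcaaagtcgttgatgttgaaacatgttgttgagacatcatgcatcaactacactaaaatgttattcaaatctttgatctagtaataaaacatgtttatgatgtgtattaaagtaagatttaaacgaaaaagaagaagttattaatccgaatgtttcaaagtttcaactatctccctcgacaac
RPT6B: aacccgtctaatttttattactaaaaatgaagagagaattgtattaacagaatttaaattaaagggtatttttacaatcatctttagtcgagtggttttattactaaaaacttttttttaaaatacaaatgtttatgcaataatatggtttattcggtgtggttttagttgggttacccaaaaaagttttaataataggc
The PBA1 stretch lies at chr4:15188544-15188743, those of RPN1A and RPN1B at chr2:8858762-8858961 and chr4:14072583-14072782, those of RPN2A and AT1G04810 at chr2:13879759-13879958 and chr1:1349880-1350079, and those of RPT6A and RPT6B at chr5:6751598-6751797 and chr5:6756433-6756632. The RPN1B stretch is on the minus strand and the other stretches are on the plus strand. In this shorter window the element was present in 45.8% of members, against 20.5% of all protein-coding promoters and 25.4% of those of tested genes. The gene spans given further on are those of the deposited count table, so a stretch need not end where such a span begins. Both ends of the span are the same in the table and in RefSeq for 6030 of 27998 genes.

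In wild type, salt was accompanied by higher counts of nearly every subunit gene, and in the libraries labelled camta6-5 it was not. With edgeR's quasi-likelihood test and Benjamini-Hochberg adjustment over all 18515 genes at 0.05 (a gene past it is named called), 44 of 48 members were called higher with salt in wild type, 1 was called lower and 3 were not called, while 77.5% of all genes were called, 37.9% higher and 39.6% lower. The median log2 fold change was 0.63 over the members and -0.01 over all genes. In camta6-5, 2 members were called higher, 16 lower and 30 were not called, while 55.6% of all genes were called, 28.2% higher and 27.5% lower, and the median was -0.12 over the members and 0.01 over all genes. Without the camta6-5 library labelled replicate 2 of the group without salt, 4 members were called higher there and 12 lower, with a median of -0.06 over the members. The median was -0.19 without replicate 3 of the same group and -0.07 with no scaling factors, where that of all genes was 0.05. Of the 44 that were called higher in wild type, 2 were called higher, 14 lower and 28 not called in camta6-5. The same split was not made over all genes called higher in wild type, so it cannot be taken as particular to the members.

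**Figure D1:**
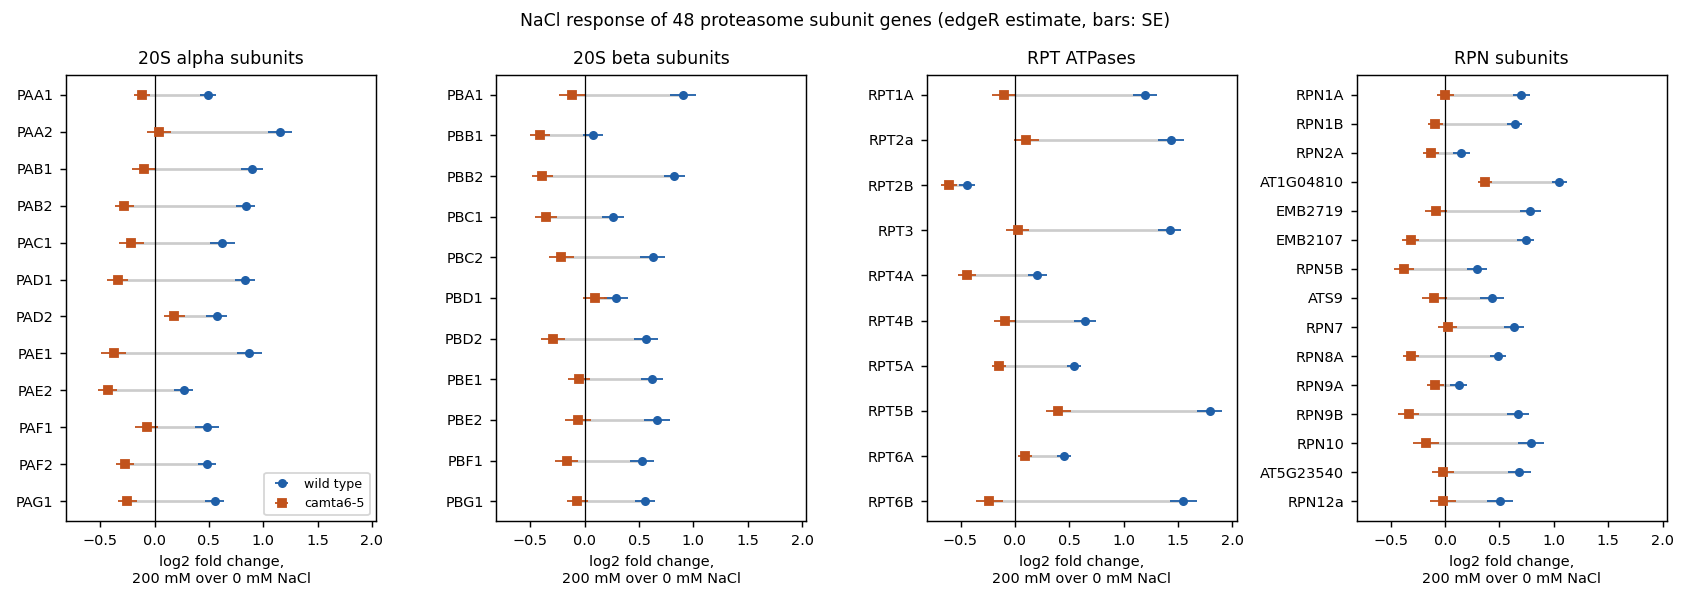
Points give the log2 fold change of 200 over 0 mM NaCl in wild type (circles) and camta6-5 (squares) for each subunit gene, with SE bars, by subcomplex. The wild-type point lies to the right of the camta6-5 point for all 48 genes, and RPT2B is the gene with both points left of 0.

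Summed over the 48 genes, the share of all counts was 0.772%, 0.804% and 0.705% in the 3 wild-type libraries without salt and 1.19%, 1.36% and 1.24% in the 3 with salt. In camta6-5 it was 0.758%, 0.817% and 0.712% without salt and 0.733%, 0.753% and 0.704% with it. The salt-treated wild-type libraries therefore stood above all other 9, whose shares overlapped. Group means were 0.760% ± 0.050, 1.264% ± 0.085, 0.762% ± 0.052 and 0.730% ± 0.025 in the order wild type without and with salt and camta6-5 without and with salt (SD, n = 3). The RPT genes took a larger part of the proteasome counts in salt-treated wild type, 27.1% ± 0.39, against 21.8% ± 0.58 without salt, and 22.1% ± 0.83 and 22.8% ± 0.30 in camta6-5. The RPN genes took 35.7% ± 0.51 there, against 38.7% ± 0.74, 37.8% ± 0.63 and 38.6% ± 0.12, and the beta genes 18.2% ± 0.16 against 20.3% ± 0.24, 20.3% ± 1.08 and 19.6% ± 0.33. The alpha share, 18.96% to 19.84% as group means, showed no such step.

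**Figure D2:**
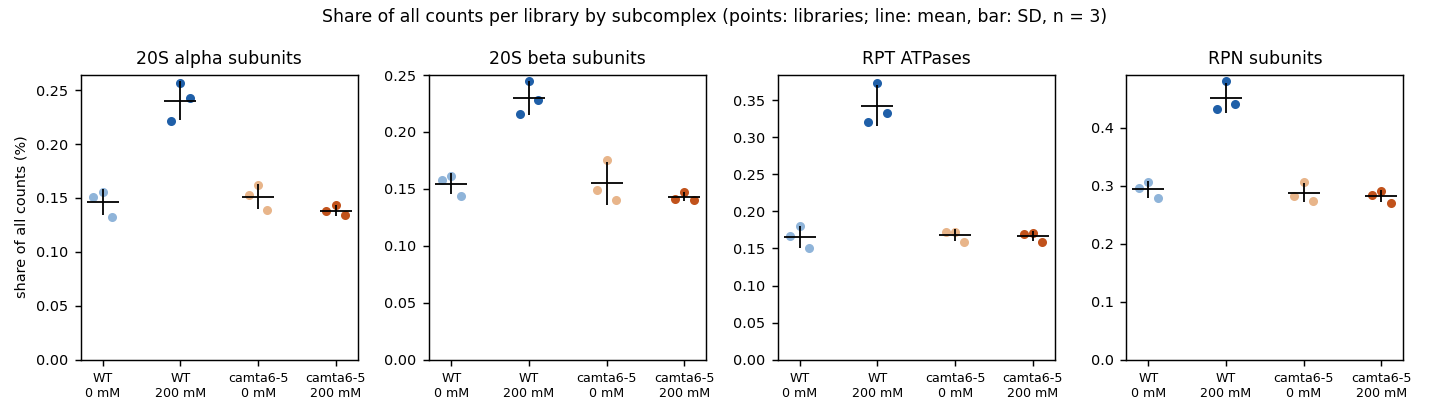
Each panel plots the percentage of all counts on the genes of a subcomplex in each library (points), with the group mean (line) and SD (bar, n = 3). In every panel the 3 salt-treated wild-type libraries lie above the other 9, most widely in the RPT panel, where the mean was 0.342% against 0.166% without salt.

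The complex needs its subunits in fixed proportion, and the counts were summed over the members for each subunit and divided by exon length to set subunits side by side. Without salt in wild type, the sums were 124 to 208 CPM per kb over the 7 alpha subunits, 148 to 201 over the 7 beta subunits, 107 to 204 over the 6 RPT subunits and 98.6 to 182 over the 11 RPN subunits. With salt, the ratio of the group means in wild type was 1.40 to 1.83 for the alpha, 1.26 to 1.88 for the beta, 1.44 to 2.68 for the RPT and 1.28 to 1.73 for the RPN subunits. In camta6-5 these ratios were 0.755 to 0.966, 0.755 to 0.998, 0.875 to 1.03 and 0.797 to 1.03. RPT3 had the highest ratio in wild type (2.68) and PBB the lowest (1.26). Subunits with a gene outside the 48 (RPT1, RPN3, RPN8, RPN12 and PAC) are here without it.

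The alpha ring forms the gated entry of the core and the surface on which the cap docks. All 12 alpha genes were called higher with salt in wild type (median log2 0.60). In camta6-5, 6 were called lower and none higher (median -0.23). Without the camta6-5 salt library labelled replicate 3, 2 alpha genes were called lower there, and without replicate 2 of the camta6-5 libraries without salt 1 was called higher. PAF1 (AT5G42790), with the highest alpha level per length (183 CPM per kb as a mean over 12 libraries), stood at 218, 209 and 188 CPM in wild type without salt and 264, 315 and 282 CPM with it, and at 209, 253 and 182 and then 204, 213 and 195 CPM in camta6-5. PAD1 (AT3G51260), an alpha4 gene, was at 171, 191 and 151 CPM and 281, 322 and 309 CPM in wild type and at 189.7, 211 and 179.7 CPM and 154, 162 and 143 CPM in camta6-5. For both genes the salt-treated wild-type libraries were above the untreated ones. In camta6-5 the groups overlapped for PAF1, and all PAD1 values with salt were below those without. The log2 fold changes were 0.48 ± 0.11 and -0.07 ± 0.11 (SE) for PAF1 and 0.83 ± 0.10 and -0.34 ± 0.10 for PAD1, in wild type and camta6-5.

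PAB2 (AT1G79210), an alpha2 gene, had the smallest interaction p of the ring, with 69.99, 68.7 and 59.1 CPM without and 108, 125 and 121 CPM with salt in wild type, against 72.5, 73.8 and 64.4 CPM and 59.7, 59.05 and 54.9 CPM in camta6-5. Salt thus separated the libraries upward in wild type (0.84 ± 0.09) and downward in camta6-5 (-0.28 ± 0.09), the latter not called without the camta6-5 salt library labelled replicate 3 (adjusted p 0.0599, edgeR). PAF2 (AT1G47250), the paralog of PAF1 and the lowest of the ring per length (29.3 CPM per kb), held 34.6, 35.8 and 30.03 CPM and 42.98, 50.5 and 47.2 CPM in wild type and 35.7, 36.5 and 34.2 CPM and 29.6, 30.5 and 28.04 CPM in camta6-5. It showed the same order of groups (0.49 ± 0.08 and -0.27 ± 0.08), and its lower value in camta6-5 was also not called without that library (adjusted p 0.0552, edgeR). The largest alpha response in wild type was that of PAA2 (AT2G05840), an alpha1 gene, at 1.15 ± 0.11 against 0.04 ± 0.11 in camta6-5.

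In the beta ring, PBA1 (beta1) carries the caspase-like site, PBB1 and PBB2 (beta2) the trypsin-like site and PBE1 and PBE2 (beta5) the chymotrypsin-like site. Of 11 beta genes, 10 were called higher with salt in wild type (median log2 0.57), and 4 were called lower and none higher in camta6-5 (median -0.17). Without replicate 2 of the camta6-5 libraries without salt, PBD1 was called higher there (0.276, adjusted p 0.0049, edgeR) and 3 beta genes were called lower. Without replicate 3 of the same group, 5 were called lower. In wild type, 8 beta genes were called higher when the salt library labelled replicate 2 was left out. PBC1 and PBD1 lost the call there (adjusted p 0.098 and 0.0937, edgeR). The count was 9 without wild-type replicate 2 or 3 without salt, or without wild-type replicate 3 with salt. PBA1 (AT4G31300, chr4:15188748-15191217, plus strand) had the highest level per length of the 48 genes as a mean over the 12 libraries (213 CPM per kb) and was at 210.4, 218 and 182 CPM without and 361, 409 and 375 CPM with salt in wild type and at 199.8, 260.4 and 182 and 195, 209 and 187 CPM in camta6-5. Its wild-type groups did not overlap (0.91 ± 0.12) and its camta6-5 groups did (-0.12 ± 0.12). PBB1 (AT3G27430) went from 195, 191 and 182 CPM to 185, 211 and 202 CPM in wild type, which overlap, and from 178, 223 and 179 CPM to 143, 153 and 141 CPM in camta6-5, which do not. In the fit of all 12 libraries it was the only beta gene not called in wild type (0.08 ± 0.09) and was called lower in camta6-5 (-0.41 ± 0.09).

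Its paralog PBB2 (AT5G40580) rose in wild type from 79.8, 83.6 and 73.7 CPM to 124, 157 and 139 CPM (0.83 ± 0.10) and fell in camta6-5 from 82.00, 91.03 and 76.6 CPM to 66.1, 66.4 and 57.99 CPM (-0.39 ± 0.10). Both changes separated all libraries, and the deposited PBB2 row overlaps that of another gene, so that some of its reads may not be its own. PBE1 (AT1G13060) was at 203, 193 and 174 CPM and 280.4, 318 and 278 CPM in wild type and at 189.8, 229 and 169.8 CPM and 188, 193 and 187 CPM in camta6-5. PBE2 (AT3G26340), the lowest of the ring per length (50.4 CPM per kb), was at 60.9, 56.3 and 48.1 CPM and 78.4, 98.9 and 84.96 CPM in wild type and at 55.7, 64.7 and 48.6 CPM and 53.9, 56.6 and 51.4 CPM in camta6-5. Both beta5 genes were called higher with salt in wild type (0.62 ± 0.10 and 0.66 ± 0.12) and neither was called in camta6-5 (-0.05 ± 0.10 and -0.06 ± 0.12). PBG1 (AT1G56450), the beta7 gene, had 203, 209 and 187 CPM and 281, 314 and 285 CPM in wild type and 200.1, 253 and 193 CPM and 204, 205 and 206 CPM in camta6-5, again with a step in wild type (0.55 ± 0.10) and overlapping values in camta6-5 (-0.07 ± 0.10).

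The RPT ATPases gave the widest spread. Of 10 genes, 9 were called higher and 1 lower with salt in wild type (median log2 0.92, range -0.44 to 1.79), and in camta6-5 1 was called higher and 2 lower (median -0.09). RPT3 (AT5G58290, chr5:23569062-23571340, plus strand) and RPT2a had the highest levels per length of the ATPases (187 and 201 CPM per kb). RPT3 was at 267, 299 and 244 CPM in wild type without salt and at 667, 824 and 683 CPM with it, and at 261, 305 and 248 and 280.0, 291 and 258 CPM in camta6-5. RPT2a (AT4G29040, chr4:14312303-14314600, plus strand), whose loss is known to impair the root meristem, was at 227, 246 and 193 CPM and 555, 679 and 567 CPM in wild type and 239, 264 and 206 CPM and 262, 264 and 235 CPM in camta6-5. Every salt-treated wild-type library was above every other library for both genes. The fold changes on the log2 scale were 1.42 ± 0.11 and 1.44 ± 0.12 in wild type and 0.02 ± 0.11 and 0.10 ± 0.11 in camta6-5.

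RPT2B (AT2G20140, chr2:8692700-8695084, plus strand), the paralog of RPT2a, was the only member called lower with salt in wild type. It had 124, 121 and 119.6 CPM without and 82.6, 94.8 and 90.9 CPM with salt in wild type, and 131, 138 and 129 CPM and 90.5, 91.3 and 78.8 CPM in camta6-5. The groups did not overlap in either genotype, and the log2 fold changes were -0.44 ± 0.07 and -0.61 ± 0.07, a difference of -0.17 ± 0.10 that was not called. RPT5B (AT1G09100, chr1:2936528-2939326, minus strand) had the largest response in wild type, from 82.4, 88.5 and 65.1 CPM to 247, 296 and 275 CPM (1.79 ± 0.12), and was one of 2 members called higher in camta6-5, from 85.4, 84.6 and 70.2 CPM to 112, 106 and 98.8 CPM (0.40 ± 0.11). Its deposited row overlaps that of another gene.

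RPT6B (AT5G20000, chr5:6756633-6759750, plus strand) had the smallest interaction p of all members: 70.6, 73.01 and 56.2 CPM and 172, 231 and 182 CPM in wild type, and 72.9, 74.9 and 64.7 CPM and 61.3, 63.4 and 56.01 CPM in camta6-5. Salt-treated wild type stood above all other libraries (1.55 ± 0.12), while all camta6-5 values with salt lay below those without (-0.23 ± 0.12, not called). In a fit of these 2 camta6-5 groups alone it was called (adjusted p 0.0454, edgeR). Of the 50-base stretches of its exons, 8.32% also occur in RPT6A, the neighbouring gene, so a part of its reads could be assigned to either gene. RPT4A (AT5G43010), the lowest RPT gene per length (53.0 CPM per kb), had 86.3, 93.1 and 86.04 CPM and 93.6, 113 and 100.4 CPM in wild type and 89.3, 97.5 and 91.2 CPM and 68.4, 74.7 and 61.8 CPM in camta6-5. Its rise in wild type was small (0.21 ± 0.08) and was not called when any of 5 libraries was left out, these being wild-type replicates 1 and 3 without salt, wild-type replicates 2 and 3 with salt and camta6-5 replicate 1 with salt, with adjusted p of 0.0693, 0.0656, 0.157, 0.0531 and 0.0529 (edgeR). Its fall in camta6-5 was -0.44 ± 0.09.

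**Figure D3:**
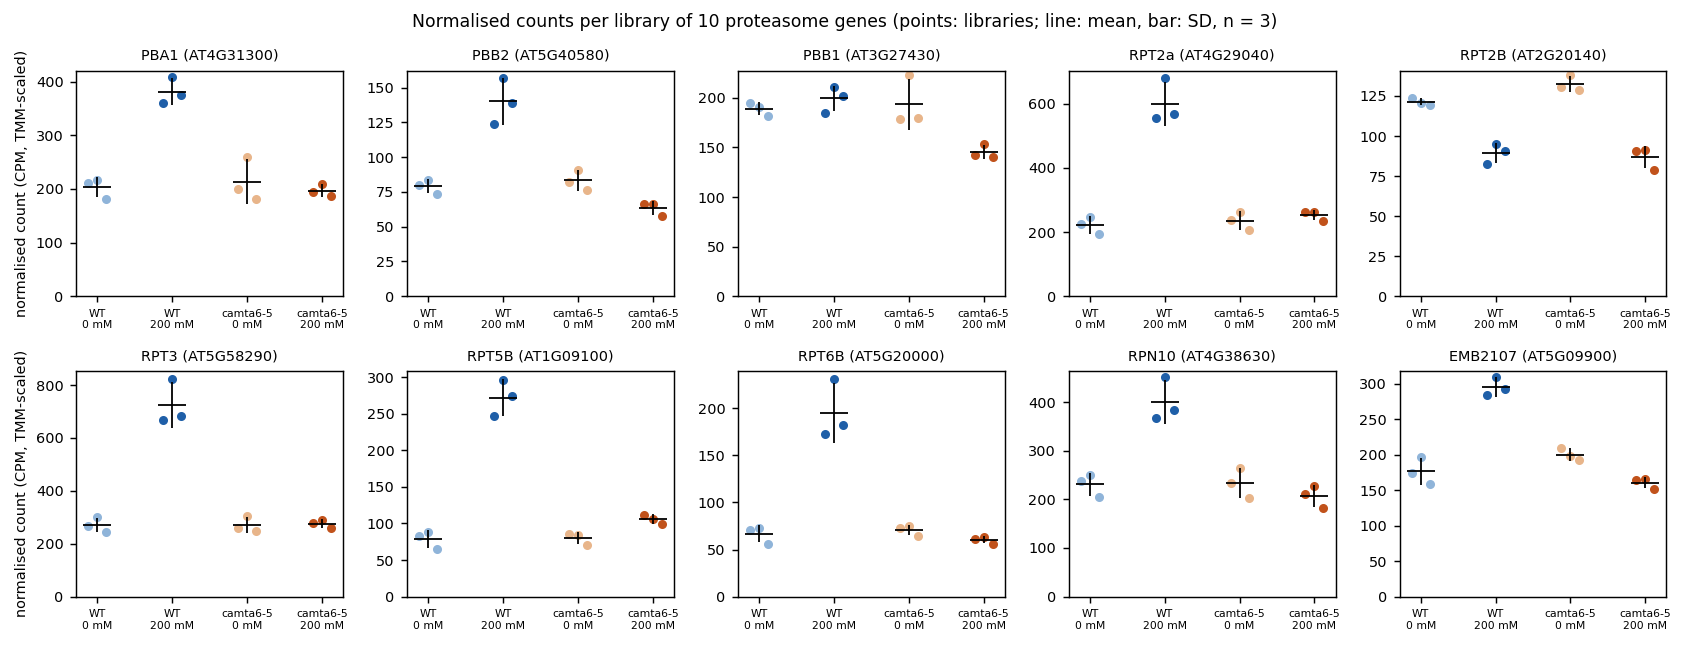
Normalised counts (CPM, scaled by TMM factors) of 10 subunit genes in each library, with the mean (line) and SD (bar, n = 3) of each group and an axis from 0. RPT2a, RPT3, RPT5B and RPT6B show the widest step in salt-treated wild type, PBB1 shows none there, and RPT2B is lower with salt in both genotypes.

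Among the RPN genes, 13 of 15 were called higher with salt in wild type (median log2 0.64) and 2 were not called. In camta6-5, 1 was called higher and 4 lower (median -0.09). RPN7 (AT4G24820), a lid scaffold subunit with the highest level per length of the group (207 CPM per kb), was at 328, 319 and 293 CPM and 456, 533 and 470.4 CPM in wild type and at 295, 346 and 283 CPM and 315, 317 and 308 CPM in camta6-5, and its deposited row overlaps another gene. Only the wild-type groups were apart (0.64 ± 0.09 against 0.02 ± 0.09 in camta6-5). RPN2A (AT2G32730), one of the paralogs for the large base scaffold RPN2, was at 323, 332 and 340.3 CPM and 356, 389 and 361 CPM in wild type and at 319, 344 and 335 CPM and 312, 325 and 275 CPM in camta6-5, and was called in neither genotype (0.15 ± 0.07 and -0.13 ± 0.07). Without the camta6-5 library labelled replicate 2 of the group without salt, its wild-type value was called higher (adjusted p 0.0428, edgeR), as it was with no scaling factors (adjusted p 0.0309). The other RPN2 gene, AT1G04810 (chr1:1350180-1355442, plus strand), was at 146, 153 and 143 CPM and 299.6, 321 and 294 CPM in wild type and at 137, 151 and 135 CPM and 187, 181 and 178 CPM in camta6-5. Its groups were apart in both genotypes, and it was the other member called higher in camta6-5 (1.05 ± 0.07 in wild type and 0.37 ± 0.07 in camta6-5).

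EMB2107 (AT5G09900), an RPN5 gene named for the embryo defect of its mutants, had the smallest interaction p of the RPN genes, with 174, 197 and 159 CPM and 284, 310.1 and 292 CPM in wild type and 209, 198 and 193 CPM and 164, 165 and 152 CPM in camta6-5. Salt thus set the wild-type values apart upward (0.74 ± 0.08) and the camta6-5 values downward (-0.32 ± 0.08). Its paralog RPN5B (AT5G64760), the lowest of the 48 per length (15.9 CPM per kb), was at 26.4, 30.2 and 24.1 CPM and 32.3, 32.3 and 34.3 CPM in wild type and 34.9, 29.2 and 30.2 CPM and 24.7, 24.1 and 23.8 CPM in camta6-5. The same order held there (0.29 ± 0.09 and -0.38 ± 0.09), and its deposited row overlaps that of another gene. RPN9A (AT5G45620), a lid gene, was the remaining RPN gene not called in wild type (0.12 ± 0.08), although all 3 salt values, 164, 168 and 165 CPM, were above the untreated 158, 149 and 149.6 CPM. Without the camta6-5 library labelled replicate 2 of the group without salt it was called (adjusted p 0.0226, edgeR).

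RPN10 (AT4G38630) is a ubiquitin receptor whose mutant is known to be hypersensitive to abscisic acid. It was at 239, 251 and 205 CPM and 367, 451 and 383 CPM in wild type and at 233, 265 and 202 CPM and 211, 227 and 183 CPM in camta6-5 (0.79 ± 0.12 and -0.17 ± 0.12). AT5G23540, annotated in the Mov34/MPN/PAD-1 family of the deubiquitinase RPN11, was at 229, 234 and 199 CPM and 328, 383 and 353 CPM in wild type and at 205, 264 and 205 CPM and 219.6, 233 and 212 CPM in camta6-5 (0.68 ± 0.10 and -0.02 ± 0.10). RPN12a (AT1G64520), a lid subunit linked to cytokinin responses, was at 191, 195 and 173 CPM and 234, 290.1 and 267 CPM in wild type and at 165, 221 and 160.4 CPM and 182, 193 and 164 CPM in camta6-5 (0.50 ± 0.12 and -0.02 ± 0.12). For these 3 genes the wild-type groups were apart and the camta6-5 groups overlapped.

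Without salt the genotypes were close. No member was called between camta6-5 and wild type (edgeR, 0 of 48), while 0.216% of all genes were called, 0.0864% higher and 0.13% lower. At an unadjusted p under 0.05, 3 of 48 members differed, a count for which no share of all genes was taken. DESeq2 and limma voom called 0 members as well. The log2 differences ranged from -0.06 (AT1G04810) to 0.26 (RPT1A), with a median of 0.07 against 0.01 over all genes, and the median was -0.03 without the camta6-5 library labelled replicate 2. With salt, 45 members were called lower and none higher in camta6-5 than in wild type, while 62.3% of all genes were called, 33.8% higher and 28.5% lower. The median was -0.68, against 0.05 over all genes, and 9 members were at or past a 2-fold difference, all lower. The share of all genes past 2-fold was not counted, so the 9 cannot be set against it. By subcomplex, 12 of 12 alpha, 10 of 11 beta, 9 of 10 RPT and 14 of 15 RPN genes were called lower. RPT6B had the largest difference (-1.70 ± 0.12), followed by RPT3 (-1.39 ± 0.11) and RPT5B (-1.37 ± 0.12).

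PBD1 (AT3G22630, a beta4 gene), RPT2B and RPN9A were not called between the salt-treated groups, at -0.17 ± 0.11, -0.04 ± 0.07 and -0.15 ± 0.08. All 3 PBD1 values in camta6-5, 134, 133 and 129.8 CPM, were below the wild-type values, 141, 159 and 147 CPM, and so were those of RPN9A, while those of RPT2B overlapped. Without the camta6-5 library labelled replicate 2 of the group without salt, PBD1 (adjusted p 0.0108, edgeR) and RPN9A (adjusted p 0.00862) were called. So they were in a fit of the 2 salt-treated groups alone (adjusted p 0.0182 and 0.0152, edgeR). The interaction, which is the salt response of camta6-5 minus that of wild type, was called negative for 45 members and positive for none, with a median of -0.73 against 0.05 over all genes, and 48.1% of all genes were called, 27.1% positive and 21% negative. These last comparisons and the salt response of wild type share the salt-treated wild-type libraries and are not separate evidence. Among genes described above, the interaction was -1.78 ± 0.17 for RPT6B, -1.39 ± 0.16 for RPT5B, -1.21 ± 0.14 for PBB2, -1.12 ± 0.12 for PAB2, -1.06 ± 0.11 for EMB2107, -1.03 ± 0.17 for PBA1 and -0.96 ± 0.17 for RPN10. It was smaller for PBE2 (-0.73 ± 0.16), AT5G23540 (-0.70 ± 0.15), AT1G04810 (-0.68 ± 0.09), PBE1 (-0.68 ± 0.14) and PBB1 (-0.49 ± 0.13). For RPN12a it was -0.52 ± 0.17, and it was not called without wild-type replicate 2 with salt (adjusted p 0.0533) or camta6-5 replicate 3 with salt (adjusted p 0.0545, edgeR).

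The members with and without the TGGGC element had medians close to each other, and this difference was not tested. In wild type the median log2 fold change with salt was 0.62 over the 29 members with it (range -0.44 to 1.79) and 0.63 over the 19 without it (range 0.12 to 1.55). The interaction medians were -0.73 in both sets, with ranges of -1.40 to -0.17 and -1.78 to -0.22. Of the promoters printed above, that of RPT6B holds no copy and its gene had the most negative interaction, and that of RPN2A holds none and its gene was not called with salt in either genotype.

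How the counts of a paralog pair divide was read from the ratio of the counts of the 2 genes in a library, which does not depend on library scaling. The ratios and the percentages below were not divided by exon length, which differs within pairs. A percentage is thus a share of the counts of the pair and does not show which paralog supplies more of the subunit. Both genes of each of 17 pairs are members, and a shift of their log2 ratio is the change of the first gene minus that of the second. These changes are treated above as having been in view, so the tests below are given as a description. Each ratio was compared between salt and no salt within genotype, and between genotypes within treatment, by an exact two-sided permutation test (400 arrangements, smallest possible p 0.005), with Benjamini-Hochberg adjustment over the 34 tests. The ratio differed between salt and no salt in 7 pairs (adjusted p 0.0243 by the exact test for each), namely PAA, PAB, PBC, RPT2, RPT4, RPT5 and RPN2. The count was 6 to 9 when any 1 library was left out, and no ratios of other gene pairs were set beside it.

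The largest shift was in RPT2. The log2 ratio of RPT2a to RPT2B was 0.87, 1.03 and 0.69 in wild type without salt and 2.75, 2.84 and 2.64 with it, and 0.87, 0.94 and 0.68 and then 1.54, 1.53 and 1.58 in camta6-5. RPT2a thus supplied 64.5% ± 2.69 of the counts of the pair in untreated and 87.0% ± 0.79 in salt-treated wild type, and 63.9% ± 2.17 and 74.5% ± 0.35 in camta6-5 (SD, n = 3). The pooled shift was 1.30, all salt values lay above the untreated ones in both genotypes, and the salt-treated camta6-5 values lay below those of wild type.

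For RPT5 the ratio of RPT5A (AT3G05530) to RPT5B fell with salt, from 1.24, 1.14 and 1.57 to 0.13, 0.04 and -0.0046 in wild type and from 1.25, 1.31 and 1.49 to 0.71, 0.79 and 0.90 in camta6-5. RPT5B took 28.7% of the counts of the pair in untreated and 49.0% in salt-treated wild type, and 28.2% and 36.5% in camta6-5. The pooled shift of the log2 ratio was -0.90. Divided by exon length, RPT5B was above RPT5A in salt-treated wild type (179 against 166 CPM per kb) and below it in the other groups. In RPN2 the share of AT1G04810 went from 30.7% to 45.3% in wild type and from 29.8% to 37.5% in camta6-5 (pooled shift -0.70, log2). In all 3 pairs the ratio moved the same way in both genotypes, without overlap between treated and untreated libraries, and the salt-treated groups of the genotypes did not overlap.

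The other called shifts were smaller. The log2 ratio of PAA1 to PAA2 moved by -0.41 over both genotypes. PAA2 took 58.9% of the counts of the pair in salt-treated wild type against 47.6% without salt, and 51.0% against 48.1% in camta6-5. Divided by exon length, PAA2 was above PAA1 in salt-treated wild type (191 against 172 CPM per kb). It was below PAA1 in the other groups, salt-treated camta6-5 among them (95.4 against 119 CPM per kb). In the single libraries the log2 ratio of PAA1 to PAA2 was 0.13, 0.035 and 0.25 without and -0.48, -0.60 and -0.48 with salt in wild type, and 0.11, 0.018 and 0.20 and then -0.031, -0.085 and -0.057 in camta6-5. RPT4A to RPT4B moved by -0.40, with RPT4A at 24.5% in salt-treated wild type against 30.7%, and 26.7% against 31.8% in camta6-5. Its ratio went from -1.305, -1.21 and -1.02 to -1.61, -1.61 and -1.65 in wild type and from -1.15, -1.14 and -1.01 to -1.49, -1.40 and -1.47 in camta6-5. PBC1 to PBC2, a beta3 pair, moved by -0.25. It went from -0.047, -0.099 and 0.070 to -0.33, -0.47 and -0.37 in wild type and from 0.028, -0.061 and -0.046 to -0.26, -0.12 and -0.13 in camta6-5. PAB1 to PAB2 moved by 0.12. It went from 0.68, 0.70 and 0.67 to 0.70, 0.81 and 0.70 in wild type and from 0.71, 0.73 and 0.61 to 0.85, 0.84 and 0.92 in camta6-5. In these 4 pairs, too, the treated libraries did not overlap with the untreated ones in either genotype, by the smallest margin in PAB of wild type. Pairs whose ratio separated the treated from the untreated libraries in wild type, but not in the same direction in camta6-5, did not pass the test over both genotypes. In PBB, the beta2 pair, the share of PBB1 was 70.6% ± 0.93 and 58.8% ± 1.36 in wild type and 69.9% ± 1.28 and 69.6% ± 1.23 in camta6-5 (adjusted p 0.0744, exact test). In RPT6, the share of RPT6A was 72.0% ± 1.49 and 54.6% ± 3.82 in wild type and 71.2% ± 0.88 and 75.6% ± 1.04 in camta6-5 (adjusted p 0.157, exact test), below the untreated libraries in wild type and above them in camta6-5. Divided by exon length, RPT6A was below RPT6B in salt-treated wild type (95.9 against 108.9 CPM per kb) and above it in the other groups.

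Between genotypes 1 ratio passed, that of RPN1A to RPN1B, by -0.075 on the log2 scale (adjusted p 0.0425, exact test). RPN1A took 67.9% ± 0.79 of the counts of the pair in wild type and 66.4% ± 0.93 in camta6-5 without salt, and 68.7% ± 0.27 and 67.9% ± 0.65 with it. The log2 ratios were 1.14, 1.03 and 1.06 in wild type and 0.995, 1.04 and 0.92 in camta6-5 without salt, which overlapped. They were 1.12, 1.16 and 1.13 in wild type and 1.11, 1.03 and 1.0996 in camta6-5 with it. The call did not hold in every fit that left out 1 library. The count of pairs was 0 without any 1 of wild-type replicate 1 without salt, wild-type replicates 1, 2 or 3 with salt, camta6-5 replicate 1 without salt or camta6-5 replicate 2 with salt. It was 3 without wild-type replicate 3 or camta6-5 replicate 2 without salt. Fewer libraries also leave fewer arrangements, so a lost call alone does not show that the ratio changed.

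**Figure D4:**
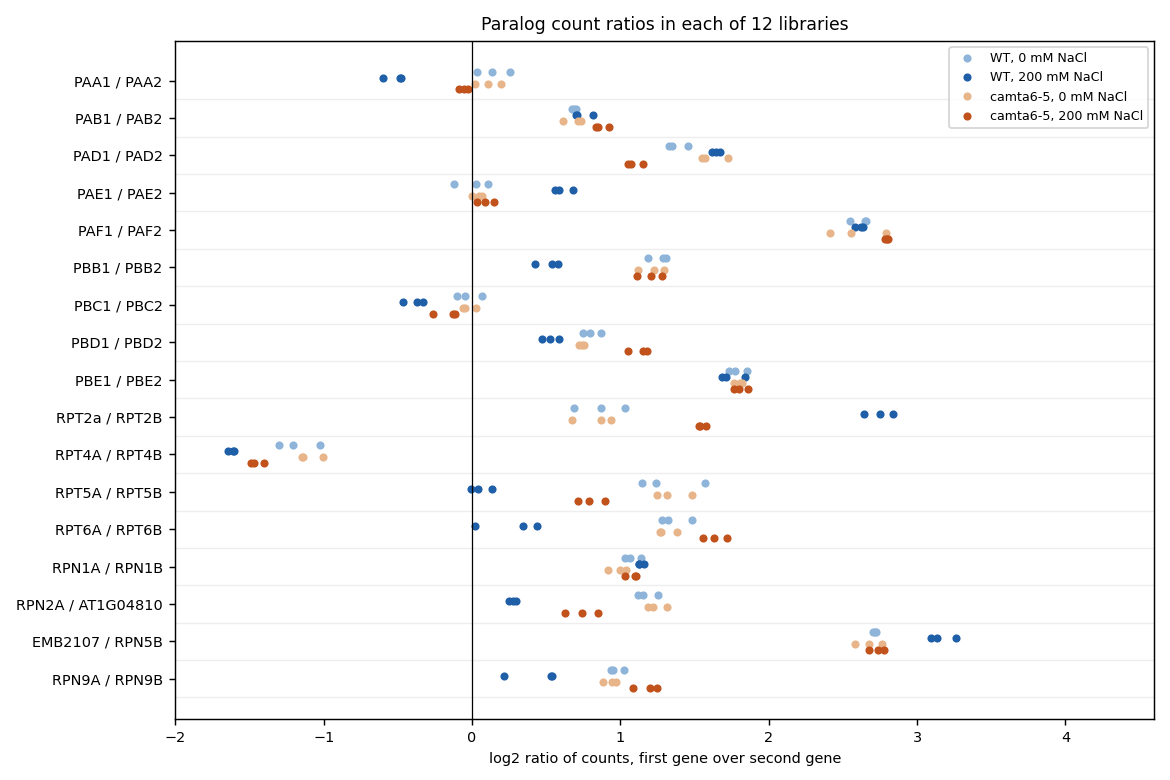
Points give the log2 ratio of the counts of the first gene to the second gene of each of 17 paralog pairs in each of 12 libraries, with the 4 groups in 4 colours. The salt-treated wild-type points are set apart from the other 9 in, among others, RPT2, RPT5, RPT6, RPN2, PAA, PAE and PBB, and the salt-treated camta6-5 points lie between them and the untreated points in RPT2, RPT5, RPN2 and PAA.

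Genes that work with the proteasome were counted from lists of known roles, drawn up with earlier results of these data known, and the 2 genes of each list with the smallest adjusted p in wild type are named. AT1G67250, the NAC genes, RAD23C and COP9 were named after their values had been seen. The counts below are a description, to be read against all genes tested. Of these, 37.9% were called higher and 39.6% lower with salt in wild type, 28.2% and 27.5% in camta6-5, and 33.8% and 28.5% between the salt-treated genotypes. No gene of the 5 lists was called between the genotypes without salt. With salt, 3 of 8 other subunit genes, 8 of 10 regulators, 6 of 8 shuttle genes, 6 of 7 ubiquitin genes and 7 of 10 signalosome genes were called lower in camta6-5, and 1 shuttle gene was called higher. The interaction was called negative for 2, 8, 4, 2 and 7 of them and positive for 1 shuttle gene, against 21% and 27.1% of all genes. Of 8 other subunit genes, 3 were called higher and 1 lower with salt in wild type, 1 higher and 2 lower in camta6-5. MEE34 (AT3G11270, the RPN8 paralog of RPN8A) rose in wild type by 1.23 ± 0.11 (adjusted p 2.7e-07, edgeR), with -0.03 ± 0.11 in camta6-5. RPT1B (AT1G53780), the paralog of RPT1A, rose in both, by 0.58 ± 0.09 and 0.79 ± 0.09 (adjusted p 4.2e-05 and 1.3e-05, edgeR), and RPT1A shares 1.14% of its 50-base exon stretches with 2 other genes, RPT1B among them. RPN13 and both DSS1 genes were not called with salt in either genotype.

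Of 10 tested assembly factors, activators and regulators, 9 were called higher with salt in wild type and none lower, and in camta6-5 4 were called higher and 2 lower. PA200 (AT3G13330), an activator that caps the core in place of the 19S particle, was at 102, 109 and 104 CPM and 303, 367 and 286 CPM in wild type and at 99.6, 101 and 93.1 CPM and 128, 126 and 117 CPM in camta6-5. It rose in both genotypes, by 1.61 ± 0.09 and 0.34 ± 0.09 (adjusted p 3.9e-09 and 0.0050, edgeR), and the interaction was -1.27 ± 0.12 (adjusted p 9.0e-06). AT3G53970, annotated as proteasome inhibitor-like, rose by 1.34 ± 0.11 and 0.92 ± 0.11 (adjusted p 1.5e-07 and 2.1e-05, edgeR). AT1G67250, annotated as the assembly factor UMP1, was called higher in wild type and lower in camta6-5 (0.57 ± 0.12 and -0.48 ± 0.12). The genes of the NAC factors that bind the TGGGC element were at 31.7, 31.7 and 31.9 CPM and 41.8, 40.6 and 38.00 CPM in wild type and 37.4, 31.7 and 31.7 CPM and 32.3, 30.3 and 33.7 CPM in camta6-5 for ANAC053 (AT3G10500), and rose in wild type by 0.34 ± 0.08 for it and by 0.68 ± 0.08 for ANAC078 (AT5G04410), with -0.06 ± 0.08 and 0.19 ± 0.08 in camta6-5.

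Of 8 genes for ubiquitin shuttles and CDC48, 6 were called higher with salt in wild type and 2 in camta6-5, with none lower. CDC48 (AT3G09840), the ATPase that extracts ubiquitinated proteins from complexes, was at 678, 719.6 and 645 CPM and 1292, 1503 and 1259 CPM in wild type and at 681, 798 and 659 CPM and 785, 792 and 668 CPM in camta6-5 (0.99 ± 0.10, adjusted p 1.3e-06, edgeR, and 0.07 ± 0.10). AT3G13235, a ubiquitin family gene, rose in wild type by 0.72 ± 0.07 (adjusted p 7.3e-07, edgeR), with 0.01 ± 0.07 in camta6-5. RAD23C (AT3G02540), a shuttle factor, went the other way, with -0.16 ± 0.08 in wild type and 0.48 ± 0.08 in camta6-5 and an interaction of 0.63 ± 0.12 (adjusted p 0.00076, edgeR). Of 7 ubiquitin and E1 genes, 5 were called higher in wild type and 2 in camta6-5, UBQ14 (AT4G02890) by 1.54 ± 0.20 and UBQ3 (AT5G03240) by 1.37 ± 0.19 in wild type, though reads of the near-identical polyubiquitin genes may be split between them. Of 10 genes of the COP9 signalosome, a complex related to the lid, 7 were called higher and 2 lower with salt in wild type, and 7 lower and none higher in camta6-5. CSN6B (AT4G26430) had the smallest adjusted p in wild type (0.89 ± 0.10, adjusted p 1.6e-06, edgeR), COP13 (AT5G14250) followed (0.51 ± 0.08, adjusted p 3.7e-05), and COP9 (AT4G14110) fell in both genotypes (-0.50 ± 0.08 and -0.60 ± 0.08).

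**Figure D5:**
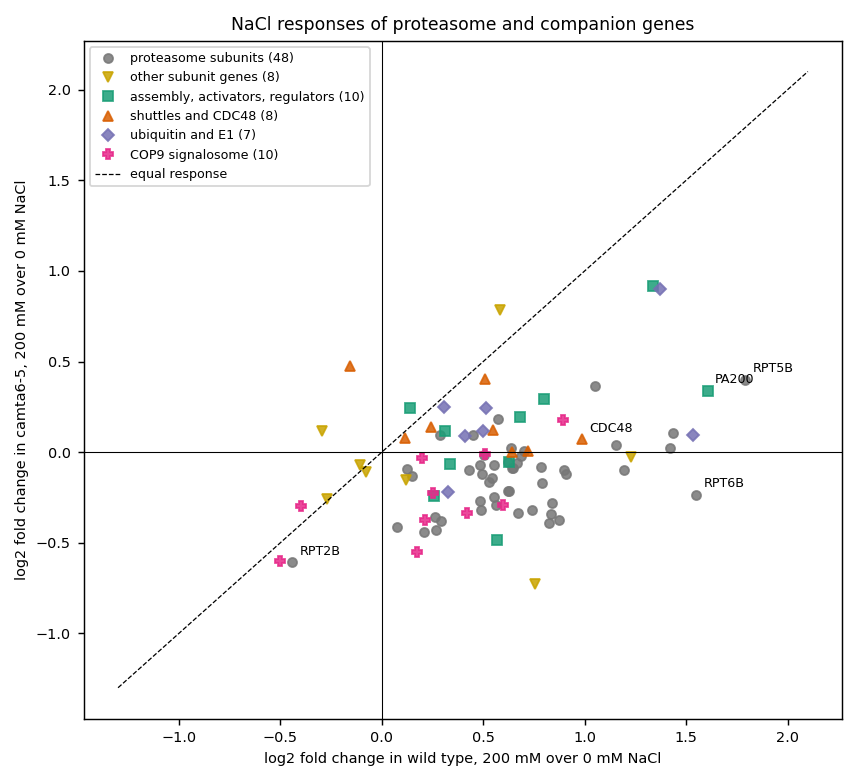
The log2 fold change with salt in wild type (x axis) is plotted against that in camta6-5 (y axis) for the 48 subunit genes and the tested genes of the 5 companion lists, with a dashed line of equal response. All 48 subunit genes lie below the line, and RPT1B and RAD23C are among the companion genes above it.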

How the data were processed

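RNA was sequenced on an Illumina HiSeq instrument from TruSeq libraries, per the labels' protocols. The deposited file holds raw counts per gene, and the submitters' processing notes name cutadapt 1.9, TopHat2 2.1.0, Bowtie2 2.2.6, HTSeq 0.6.1, DESeq2 1.10.0 and TAIR10, with no strand setting. Reads shared by paralogs or overlapping genes may therefore be misassigned.

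The 12 libraries (3 in each of 4 groups, grouped by their titles) were fitted together with edgeR 4.0.16 in R 4.3.3: filterByExpr (minimum count 10, minimum total 15), TMM factors, 1 mean per group, a quasi-likelihood test with 8 residual degrees of freedom and Benjamini-Hochberg adjustment over all genes tested at 0.05. CPM values are scaled by TMM factors. Paralog ratios used a pseudocount of 0.5. Counting error alone is small at these depths. Alternatives were other scaling, no filter, DESeq2 1.42.0, limma voom 3.58.1, the groups of a comparison alone, a replicate block and leaving out each library.

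The members and lists were chosen with earlier results of these data known. Genes described with values per library were, in each subcomplex, the 2 with the highest mean CPM, the one with the smallest interaction p and the one with the lowest mean CPM, with the peptidase subunits, RPN10, RPN11, RPN12a, every member called against the majority and, by its ratio or both genes, every pair whose ratio passed. PBD1 and RPN9A are also described, since they were not called.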

Additional observations from a re-analysis of the deposited data

Results flagged for a closer look

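The salt response differed between the genotypes by the test of the difference itself (the interaction in edgeR) for 45 of the 48 subunit genes, all with a lower response in camta6-5, while 48.1% of all genes were called, 21% with a lower response. The genes were listed with these comparisons in view, so nothing is inferred from the count. Among the genes described above, the interaction on the log2 scale was -1.78 for RPT6B, -1.39 for RPT5B, -1.21 for PBB2, -1.12 for PAB2, -1.06 for EMB2107 and -1.03 for PBA1. It was -0.96 for RPN10, -0.73 for PBE2, -0.70 for AT5G23540, -0.68 for AT1G04810, -0.68 for PBE1, -0.52 for RPN12a and -0.49 for PBB1.

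In 4 paralog pairs every salt-treated library moved one way in wild type and the other way in camta6-5, relative to the untreated libraries of the same genotype, and the difference itself was not tested. The change of the log2 ratio in camta6-5 minus that in wild type was -0.79 for PAD1 to PAD2, 0.66 for PBD1 to PBD2, 1.42 for RPT6A to RPT6B and 0.79 for RPN9A to RPN9B. The deposited rows of PAD2 and PBD1 overlap other genes, and RPT6A and RPT6B share part of their exon sequence. Pairs of other genes were not examined, so how common such opposite moves are is not known.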

How the results depend on the processing

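Of 4512 recomputed values of single members, 4449 kept their direction and their side of the threshold, 44 lost a call, 19 gained one and none reversed, and the changes fell on 17 members, 28 of them in the salt response of camta6-5. Leaving out 1 library at a time gave 41 to 46 members called higher with salt in wild type, 2 to 4 called higher and 11 to 17 called lower in camta6-5, and 42 to 45 called lower in the interaction. The median salt response of the members in camta6-5 was -0.186 to -0.055 in these fits. The median difference between genotypes without salt was -0.029 to 0.13 in these fits, so its sign depends on the camta6-5 library labelled replicate 2, without which 4 members were called higher with salt in camta6-5. The number of paralog pairs whose ratio differed between genotypes was 0 to 3 (fewer libraries also leave fewer arrangements). RPN2A in the interaction and PBD2 in the salt response of camta6-5 lost the call 9 times each, and PAD2 in the interaction and RPT4A in the salt response of wild type 5 times each.

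Replicate numbers are shared by the groups. The deviations of same-numbered libraries from their group means correlated at -0.28 to 0.35, over 0.1 in 8 of 18 cases, and all 3 were over 0.1 in 1 of 6 pairs of groups, that of the untreated genotypes. The own number gave the highest correlation in 16 of 36 cases, so the numbers were not taken to pair the libraries. With a replicate block, 44 members were called higher with salt in wild type, 18 lower in camta6-5 (RPT6B and PAC1 newly so, adjusted p 0.0379 and 0.0445, edgeR), 0 between the untreated genotypes and 45 lower in the interaction. The median over all genes moved by no more than 0.1 (log2) under any scaling. Counts per gene cannot show how much protein or active complex was present.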
